A study of Mus musculus with 5 samples.

Results

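Apolipoproteins are the protein coats of the particles that carry fat and cholesterol in blood. The liver builds very low density lipoprotein (VLDL) around 1 molecule of apolipoprotein B (Apob), and the microsomal triglyceride transfer protein (Mttp) loads that molecule with lipid in the endoplasmic reticulum. Other apolipoproteins can move between particles, where they act as ligands for receptors, as structural proteins of high density lipoprotein (HDL), or as helpers and inhibitors of the lipases that empty the particles. Hepatocytes lie between the portal vein, where blood enters the liver lobule, and the central vein, where it leaves, and many of their genes are graded along this axis (zonation).

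The 10 genes described here were taken by symbol from the 32285 genes of the deposited matrices: Apob and Mttp, the HDL proteins Apoa1 and Apoa2, the triglyceride-related Apoa4 and Apoa5, the small C apolipoproteins Apoc1, Apoc2 and Apoc3, and Apoe. Each symbol was found once. RNA was counted in single nuclei of livers from wild-type male C57BL6/J mice that received regular chow (Chow, 3 libraries) or a diet that gave 40 kcal% as fat and 20 kcal% as fructose, with cholesterol at 2% (MASH, 2 libraries), begun when the animals were between 10 and 12 weeks old and kept up for 5 months. The diet is used to bring on metabolic dysfunction-associated steatohepatitis, a fatty liver disease with inflammation. No genetic change or further treatment was given to either group. The labels do not say whether a library is 1 mouse or a pool, so the spread between libraries may be technical. The p-values of tests without a library term measure that spread. Fits with the library as a block measure the spread left after the level of each library is taken out.

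The libraries held between 8633 and 12935 barcodes and between 35612373 and 49137377 unique molecular identifiers (UMIs, the count of captured RNA molecules), and pairs of libraries shared from 23 to 48 barcodes, at most 0.399% of the smaller one. Hepatocyte nuclei were taken as those with at least 2000 UMIs and at least 1 UMI of Hnf4a, a transcription factor of hepatocytes. The Chow libraries held 3825, 5931 and 6254 of them (replicates 1 to 3), those of MASH 2347 and 2235. Nuclei that held at least 2 distinct markers of another cell type made up 12.1%, 7.47% and 7.26% of the hepatocyte nuclei in Chow, and 26.9% and 32.2% in MASH. Marker levels were summed over all hepatocyte nuclei, in CPM (UMIs of a gene scaled to a fixed total for each library). For 13 macrophage markers the sum ran from 48.5 to 67.2 in Chow and from 118 to 249 in MASH. For 11 stellate cell markers it ran from 80.3 to 86.5 and from 209 to 232. Of these markers, 2 macrophage markers were at 0 in MASH replicate 2, and none was at 0 in the other libraries. The endothelial sum (11 markers) overlapped between the diets: Chow replicates 1 to 3 reached 275, 88.5 and 93.5, the MASH libraries 179 and 171. Cholangiocyte, T cell and B cell sums were higher in both MASH libraries than in any Chow library. Of the hepatocyte markers, Cps1 was at 501 to 1383 CPM in Chow and 349 and 440 in MASH, and Alb at 2120 to 5109 and 2017 and 1447. The levels of the other markers, Fgb, Ttr, Hnf4a and Serpina1b, are not given here, so these 2 do not stand for all of them. The 10 genes together gave 1.09%, 1.58% and 1.44% of the hepatocyte UMIs in Chow and 1.03% and 0.906% in MASH.

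Of the 10 genes, 4 lie in a cluster on chromosome 9 and 3 in a cluster on chromosome 7. On GRCm38 with the GENCODE M21 annotation, the chromosome 9 cluster runs from Apoa1 (46228580 to 46230466, plus strand) over Apoc3 (46232933 to 46235636, minus strand) and Apoa4 (46240696 to 46243459, plus strand) to Apoa5 (46268633 to 46271919, plus strand). The chromosome 7 cluster holds Apoc2 (19671579 to 19677941), Apoc1 (19689481 to 19692660) and Apoe (19696109 to 19699188), all on the minus strand. Apoa2 lies on chromosome 1 (171225054 to 171226379, plus strand), Mttp on chromosome 3 (138089854 to 138144968, minus strand) and Apob on chromosome 12 (7977648 to 8016835, plus strand). All are protein-coding. Their longest annotated transcripts range from 518 bases for Apoa2 to 13934 for Apob, but each UMI stands for 1 molecule read at its 3′ end, and levels are compared here within a gene only.

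The bases just before the starts of Apoa4, Apoa1 and Apoa5 are shown because Apoa4 and Apoa1 were the members whose zonation differed between the diets, while Apoa5, their neighbour on the plus strand of chromosome 9, kept its direction in both. The sequences come from RefSeq (GRCm38.p6), are written 5′ to 3′ on the plus strand and stop before the annotated gene start, at chr9:46240594-46240695 for Apoa4, chr9:46228380-46228579 for Apoa1 and chr9:46268358-46268607 for Apoa5. Capitals mark matches, searched on both strands, to CAAAGTNCA, a form of the site that HNF4A binds, or to TGTTTNC, the core that forkhead factors bind. No window held both motifs.
Apoa4: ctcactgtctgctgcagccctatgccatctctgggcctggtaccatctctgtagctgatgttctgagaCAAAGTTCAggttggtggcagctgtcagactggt
Apoa1: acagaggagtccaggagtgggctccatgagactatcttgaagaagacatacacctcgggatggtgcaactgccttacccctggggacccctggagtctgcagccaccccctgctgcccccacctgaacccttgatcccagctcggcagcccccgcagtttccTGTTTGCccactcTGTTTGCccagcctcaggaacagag
Apoa5: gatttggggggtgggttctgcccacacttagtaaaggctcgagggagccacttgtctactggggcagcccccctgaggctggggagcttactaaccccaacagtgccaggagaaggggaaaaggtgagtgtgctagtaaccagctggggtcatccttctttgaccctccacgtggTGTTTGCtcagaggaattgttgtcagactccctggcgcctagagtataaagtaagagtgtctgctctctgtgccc

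The Apoa4 window held 1 match to CAAAGTNCA (46240662 to 46240670, plus strand), a motif found in 0.426% of 32851 RefSeq promoters over a window of the same length and place, and none to TGTTTNC (8.26% of promoters). The Apoa1 window held 2 matches to TGTTTNC (46228542 to 46228548 and 46228555 to 46228561), which 14.7% of promoters held at least once, and none to CAAAGTNCA (0.944%). The Apoa5 window held 1 match to TGTTTNC (46268533 to 46268539), found in 17.8% of promoters over its longer window, and none to CAAAGTNCA (1.19%). A match is a run of letters, its absence says nothing of the factor, and binding was not measured. RefSeq promoters were found for 8 of the 10 genes, not for Apoc1 and Apoc3.

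The first comparison asked how the RNA of these genes in hepatocyte nuclei differed between the diets. Most members ran lower in MASH and Apoa4 ran higher, but none of the 10 passed an adjusted p of 0.05 with the edgeR quasi-likelihood test on UMIs summed per library, against 12.1% of the 15141 genes tested. At an unadjusted p under 0.05 there were 5 members. At least the 12.1% of genes called above also pass that looser threshold. The full share of genes there is not given here, so the 5 cannot be set against 12.1% and are a description only. The libraries of the diets did not overlap for 7 members that were lower in MASH and 1 that was higher, and over all genes tested 24.2% did not overlap with MASH lower and 29.0% with MASH higher. The levels in this comparison are CPM, scaled by TMM, a factor that sets the bulk of genes level between libraries. The median log2 fold change over the 10 genes was -1.005, and over all genes -0.01. On total UMIs without TMM these medians were -0.65 and 0.31, and with the free RNA of the droplets subtracted, as described with those values, -0.23 and 0.02.

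Apob, the backbone of VLDL, was at 1854, 2606 and 3046 in Chow (values here and below are in the order of the replicates) and at 1443 and 1153 in MASH. The lowest Chow library was above the highest of MASH, and the log2 fold change was -0.95 (SE 0.41, edgeR adjusted p 0.156). Mttp, which lipidates Apob, was at 115, 117 and 109 in Chow and 87.9 and 99.3 in MASH. Its Chow libraries were close to each other, the groups did not overlap, and the log2 fold change of -0.28 (SE 0.22, edgeR adjusted p 0.415) had a 95% interval from -0.72 to 0.16. Without TMM, on total UMIs only, the value for Mttp turned to 0.03, while the median of all genes moved to 0.31.

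Apoa1, the main protein of HDL, was at 1630, 3379 and 3216 in Chow and 1354 and 1271 in MASH. Apoa2, the other main HDL protein, was at 1878, 3188 and 4014 in Chow and 1401 and 1209 in MASH. For both, Chow replicate 1 lay nearer to the MASH libraries than to the other 2 Chow libraries, and the log2 fold changes were -1.06 (SE 0.46, edgeR adjusted p 0.155) and -1.21 (SE 0.46, edgeR adjusted p 0.120). With free RNA subtracted, they were -0.82 for Apoa1 and -0.27 for Apoa2. Apoa5, an activator of triglyceride clearance made by hepatocytes, was at 772, 1378 and 1626 in Chow and at 584 and 590 in MASH (log2 fold change -1.10, SE 0.42, edgeR adjusted p 0.116).

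Apoa4, which is made in intestine and liver and rides on triglyceride-rich particles and HDL, was at 8.39, 54.2 and 116 in Chow and at 307 and 247 in MASH. Its Chow libraries lay far apart, yet both MASH libraries lay above all of them. The log2 fold change was 2.21 (SE 0.82), a 4.64-fold difference, with a 95% interval from 0.61 to 3.81 and an edgeR adjusted p of 0.110. Without Chow replicate 1 it was 1.69 and passed the threshold (edgeR adjusted p 0.0395), and without Chow replicate 3 it was 3.15 (0.0376). It also passed on total UMIs without TMM, without the filter on low counts and with Storey's q-values. A replicate block gave a pass too, but it pairs libraries by number, and that pairing could not be checked. With DESeq2, Apoa4 did not pass (log2 fold change 2.16, adjusted p 0.185). The adjusted p ranged from 0.00391 to 0.377 over 18 alternatives.

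Among the C apolipoproteins, Apoc3 and Apoc1 were lower in both MASH libraries and Apoc2 was not. Apoc3, an inhibitor of triglyceride clearance, was at 572, 1257 and 1345 in Chow and 486 and 311 in MASH (log2 fold change -1.41, SE 0.47, edgeR adjusted p 0.0884). Apoc1 was at 811, 1446 and 1937 in Chow and 736 and 517 in MASH (log2 fold change -1.16, SE 0.46, edgeR adjusted p 0.131), a difference that was -0.19 with free RNA subtracted. Apoc2, the cofactor that lipoprotein lipase needs, was at 208, 143 and 151 in Chow and 262 and 194 in MASH. Its groups overlapped, and the log2 fold change was 0.45 (SE 0.29, edgeR adjusted p 0.315).

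Apoe, a ligand for lipoprotein uptake, was at 2158, 3604 and 3524 in Chow and 2648 and 2059 in MASH. The groups overlapped, with a log2 fold change of -0.40 (SE 0.43, edgeR adjusted p 0.563). Chow replicate 1 was the lowest Chow library for 8 of the 10 genes, the exceptions being Apoc2 and Mttp. Without it, edgeR called 4 members, against 19.5% of genes, with Apoa4 higher and Apoc3 (-1.71), Apoc1 (-1.44) and Apoa5 (-1.36) lower. With DESeq2, 6 members were called lower in MASH (Apoa1, Apoa2, Apoa5, Apob, Apoc1 and Apoc3), against 14.6% of genes called in either direction. The plot of the 10 genes by diet shows the spread of the Chow libraries beside that of the MASH libraries.

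**Figure D1:**
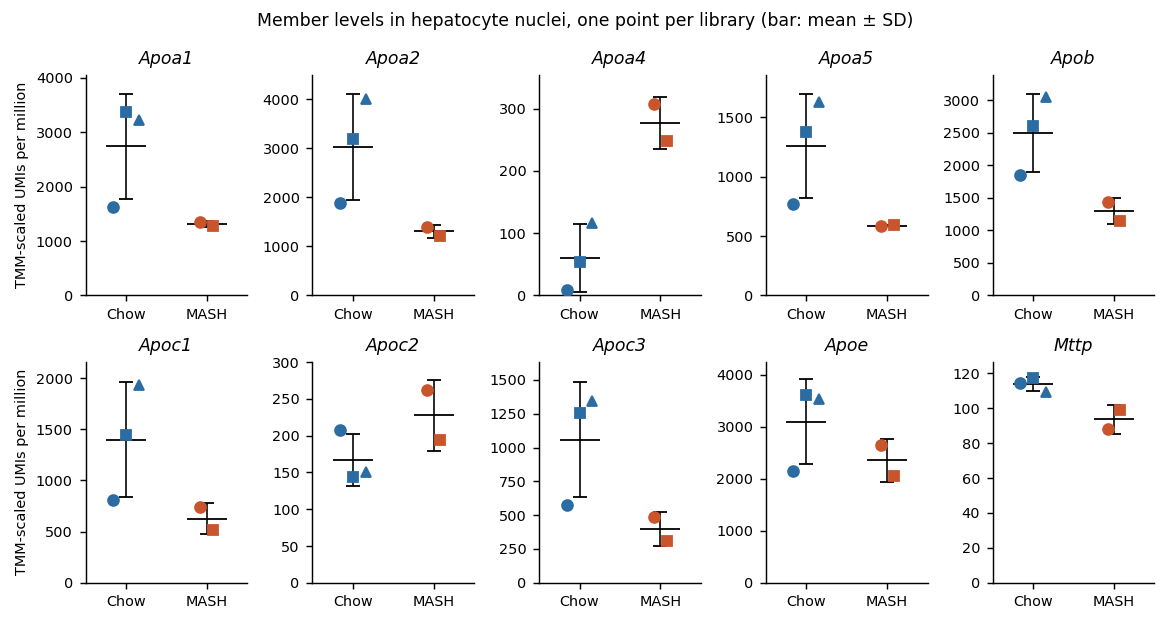
Levels of the 10 genes in hepatocyte nuclei in TMM-scaled CPM (vertical axes start at 0) by diet; each point is 1 library (circle, square and triangle for replicates 1, 2 and 3), and the black bars are the mean and SD. Apoa4 is higher in both MASH libraries (307 and 247) than in the Chow libraries (8.39, 54.2 and 116), and Chow replicate 1 lies lowest in Chow for 8 of the 10 genes.

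The next comparison asked how the members were graded across the lobule. The hepatocyte nuclei of each library were ordered by a score of 6 pericentral minus 7 periportal marker genes, none of them a member, and split into 3 equal zones, periportal, midlobular and pericentral. The zones are therefore positions within a library, not fixed distances. Of 8 further zonation genes outside the score, 7 had the direction of their name in 5 of 5 libraries, among them Glul, at 214 to 314 CPM in the pericentral zone of Chow and 892 and 1075 in that of MASH. Ass1, a periportal gene of the urea cycle, had its named direction in 3 of 5.

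In Chow, 6 of the 10 genes were lower in the pericentral than in the periportal zone in an edgeR fit with the library as a block, and none was higher. Over all 14188 genes tested, 13.8% were called lower and 14.7% higher, 28.4% in all. The 6 were Apoa4, Apoa5, Apoa1, Apob, Apoc3 and Apoc2, so all 4 genes of the chromosome 9 cluster were among them and 1 of the 3 on chromosome 7. These 6 had a lower pericentral level in each of the 3 Chow libraries.

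The steepest member was Apoa4. Its level fell from 14.2 to 2.67 in Chow replicate 1 between the periportal and the pericentral zone, from 83.1 to 17.8 in replicate 2 and from 186 to 34.2 in replicate 3. The periportal level thus ran from 14.2 to 186 between Chow libraries, while the log2 ratio between the zones stayed between -2.44 and -2.22. The fitted log2 difference was -2.36 (SE 0.09, edgeR adjusted p 3.27e-11), a 5.13-fold higher level in the periportal zone. The genes were chosen with the zone by diet effect of Apoa4 known, of which this difference is a part. Its p-value is therefore not independent support. With a score that left out Cyp2e1 and Cyp2f2 the log2 difference was -1.70, and between -2.63 and -1.70 over the 12 alternatives that took off no free RNA.

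Apoa5 had a log2 difference of -0.68 (SE 0.08, edgeR adjusted p 1.03e-05), with levels that fell from 998 to 593, from 1543 to 1064 and from 1989 to 1184 in Chow replicates 1, 2 and 3. Apoa1 fell by 0.58 on the log2 scale (SE 0.09, edgeR adjusted p 0.000163), most in Chow replicate 1, where the zones stood at 2274 and 1173, and less in replicates 2 (3719 and 2902) and 3 (3596 and 2689). Without replicate 1 the Apoa1 value was -0.39 and still called. Apob fell by 0.40 (SE 0.07, adjusted p 0.000439), Apoc3 by 0.31 (SE 0.07, adjusted p 0.00364) and Apoc2 by 0.26 (SE 0.06, adjusted p 0.00592). All 6 calls held in all alternatives run, leaving out any library included.

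The other 4 genes differed little between zones in Chow. The log2 differences were 0.05 for Apoa2 (SE 0.07), 0.06 for Apoe (SE 0.06), 0.11 for Apoc1 (SE 0.06) and 0.13 for Mttp (SE 0.07), with edgeR adjusted p values of 0.650, 0.539, 0.211 and 0.177. A p that misses the threshold does not show that the zones were equal. The levels of Apoa2 in the periportal and pericentral zones were 1966 and 1936 in Chow replicate 1, 3027 and 3372 in replicate 2, and 4034 and 4058 in replicate 3.

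In MASH, the edgeR fit called 3 members between the zones, against 9.63% of all genes in either direction. Apoa5 was lower in the pericentral zone, as in Chow, by 0.42 on the log2 scale (SE 0.10, adjusted p 0.0134), with 750 and 474 in MASH replicate 1 and 650 and 574 in replicate 2. Apoa4 was higher there by 0.35 (SE 0.08, adjusted p 0.00645), at 272 and 332 in replicate 1 and 202 and 269 in replicate 2. Apoa2 was higher by 0.33 (SE 0.08, adjusted p 0.0178), at 1349 and 1584 in replicate 1 and 1087 and 1456 in replicate 2. These MASH calls are less firm than those in Chow. With nuclei thinned to 2000 UMIs only Apoa5 was called, against 6.02% of genes (Apoa4 was then 0.16, adjusted p 0.406), without MASH replicate 1 no member was, and without MASH replicate 2 only Apoa5.

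**Figure D2:**
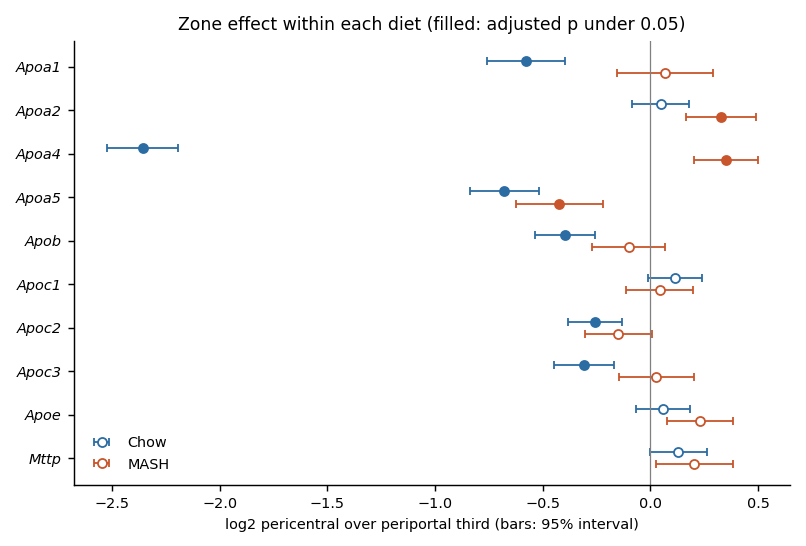
Log2 ratio of the pericentral over the periportal zone (horizontal axis) for the 10 genes in Chow and in MASH, with 95% intervals from the edgeR fit; filled points passed an adjusted p of 0.05. Apoa4 stands apart at -2.36 in Chow and 0.35 in MASH, while Apoa5 is below 0 in both.

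The difference between the zone effects of the diets was tested directly, as an interaction in the same model. This test called 2 of the 10 genes, against 5.24% of all genes in either direction and 2.40% with a higher value in MASH. For Apoa4 the zone effect was 2.71 higher in MASH than in Chow on the log2 scale (SE 0.11, edgeR adjusted p 1.08e-09). The 10 genes were chosen with this effect of Apoa4 in the same libraries already known. Its p-value and those of the Apoa4 zone effects within each diet are therefore not independent support. The log2 pericentral over periportal ratios were -2.42, -2.22 and -2.44 in the Chow libraries and 0.29 and 0.41 in the MASH libraries, with no overlap. An exact permutation over 3 against 2 libraries could not go below 0.1. The value ranged from 2.00 (nuclei thinned to 2000 UMIs) to 2.98 over the 13 alternatives that took off no free RNA, and the call held when any library was left out.

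For Apoa1 the difference was 0.64 (SE 0.15, edgeR adjusted p 0.0164). Its ratios were -0.96, -0.36 and -0.42 in Chow and 0.04 and 0.09 in MASH. Apoa1 was not called without MASH replicate 1 (0.67, adjusted p 0.179) or without replicate 2 of MASH (0.62, 0.238), and its value was 0.45 (0.00219) without Chow replicate 1. The interaction missed the threshold for the other 8 members, with values from -0.07 (Apoc1) to 0.33 (Apoc3), and Apob was called only where Chow replicate 1 was left out (0.37, adjusted p 0.00911). A fit that left out the library term called no gene of any kind, with the Apoa4 value at 2.71 and its edgeR adjusted p at 1.

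Within single zones, the diet difference of Apoa4 was 4.05 on the log2 scale in the pericentral zone (SE 0.80, edgeR adjusted p 0.0266), 2.12 in the midlobular zone (SE 0.81, adjusted p 0.135) and 1.33 in the periportal zone (SE 0.81, adjusted p 0.293). These differences are parts of the zone by diet effect known when the genes were chosen, so their p-values are not independent support. Apoa4 was the only member called in the pericentral zone, where 8.85% of genes were called. No member was called in the other zones, where 8.24% and 10.6% were. The pericentral call was lost without Chow replicate 2 (4.01, adjusted p 0.0794) and when either MASH library was left out (3.89, 0.161 and 4.21, 0.134).

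Finer steps along the score were read with the nuclei of each library in 10 equal bins. The unscaled level of Apoa4 in Chow replicate 3 was 139, 133, 133, 135 and 126 CPM in the first 5 bins from the periportal end, then 90.9, 65.3, 28.1, 24.5 and 19.2. In Chow replicate 2 the first 5 bins lay between 62.2 and 85.2 CPM and the last 5 fell from 46.5 to 11.1. Replicate 1, with 5 to 34 Apoa4 UMIs a bin, varied between 8.47 and 18.3 CPM over the first 7 bins and between 2.22 and 3.57 over the last 3. In MASH replicate 1 the same bins ran from 274 at the periportal end to 430 in the seventh and the eighth bin and 309 at the pericentral end. MASH replicate 2 ran from 201 to a highest value of 346 in the fifth bin and 283 at the pericentral end.

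**Figure D3:**
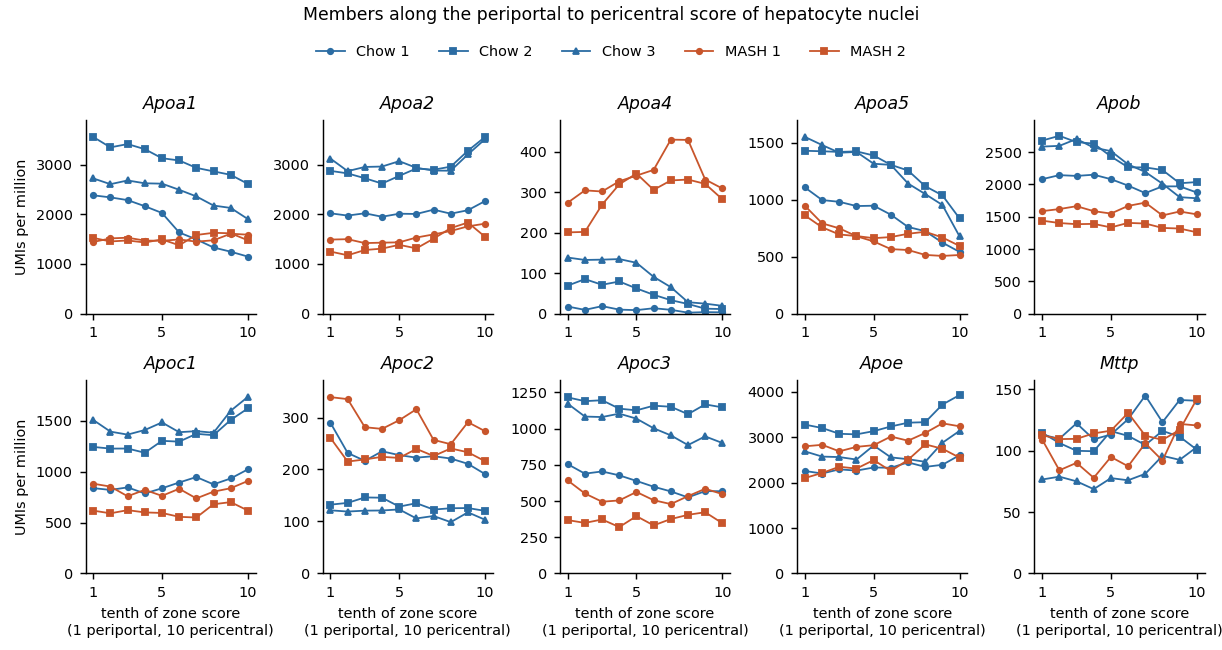
Unscaled levels of the 10 genes in CPM (vertical axes start at 0) over 10 equal bins of the zone score, from periportal (1) to pericentral (10); each line is 1 library. In Chow, Apoa4 drops towards the pericentral end (139 to 19.2 in replicate 3), and in MASH it peaks inside the lobule (430 and 346).

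Seen per nucleus, Apoa4 was present in more nuclei in MASH as well as at a higher level. With each hepatocyte nucleus thinned to 2000 UMIs, 1.70%, 7.98% and 13.03% of nuclei had an Apoa4 UMI in Chow and 44.4% and 38.9% in MASH. The means were 7.57% ± 5.68 (SD, n = 3) and 41.7% ± 3.90 (SD, n = 2), an exact permutation p of 0.1, the smallest this design allows (0.25 after Benjamini-Hochberg adjustment over 10 genes). Without thinning the means were 13.3% ± 9.32 and 67.5% ± 5.04. Endothelial-marker nuclei, which should not make Apoa4, give the background: thinned to 1000 UMIs, 0%, 1.55% and 5.79% of them had an Apoa4 UMI in Chow and 37.8% and 14.7% in MASH, where hepatocyte nuclei at the same depth stood at 0.993%, 4.67% and 7.60% in Chow and 28.0% and 23.0% in MASH. The 0% was 0 of 312 nuclei, which allows a share of up to 0.962%. Between 49 and 378 shallower endothelial-marker nuclei a library were left out, and the unthinned median depth was 954.5 to 1263.5 UMIs in these nuclei and 3867 to 5351 in hepatocyte nuclei. In MASH replicate 1 the hepatocyte share lay below that background and is read as such at this depth.

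By zone, at 2000 UMIs, the share of nuclei with an Apoa4 UMI was 2.20%, 11.1% and 19.2% in the periportal zone of the Chow libraries and 1.02%, 3.09% and 5.23% in their pericentral zone. In MASH it was 42.7% and 34.2% in the periportal zone and 44.8% and 41.2% in the pericentral zone. Few nuclei carried much of it: at most 1.79% of nuclei in any zone of a MASH library had 5 or more Apoa4 UMIs at this depth, and the median was 0 in every zone and library. Of the 10 genes, 8 had shares that did not overlap between the diets, against 50.1% of genes, and no exact test could pass.

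Apolipoprotein RNA was found in every group of nuclei, including those that hold no Hnf4a. Nuclei of other cell types were taken as those with no Hnf4a UMI and at least 3 distinct markers of 1 class, more than of any other. In endothelial-marker nuclei, the unthinned mean of Apoa2 was 5.21, 11.5 and 11.3 UMIs per nucleus in Chow and 4.57 and 2.68 in MASH, beside 11.1, 13.7 and 16.8 and then 8.75 and 9.15 in hepatocyte nuclei. Apoe was at 6.76, 14.01 and 12.4 and then 10.2 and 5.75 UMIs per endothelial-marker nucleus, beside 12.7, 15.5 and 14.8 and then 16.5 and 15.6 per hepatocyte nucleus. The hepatocyte mean exceeded the endothelial-marker mean for all 10 genes in all 5 libraries, by a median of 1.62 times for Apoe, 1.92 for Apoa2, 1.959 for Apoc1, 2.24 for Apoc3 and 3.0 for Apoa1. The medians were 3.46 for Apoc2, 5.20 for Apoa4, 5.71 for Mttp, 6.73 for Apoa5 and 6.97 for Apob. Neighbouring genes in this order overlap in their ranges over libraries, and the order is a description.

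Hepatocyte nuclei also hold more UMIs of all genes. As a share of each group's UMIs, Apoe, Apoa2 and Apoc1 were lower in hepatocyte than in endothelial-marker nuclei in all 5 libraries (medians of the ratio 0.519, 0.585 and 0.661), while Apob, Mttp and Apoa5 were higher in all 5 (1.80, 1.69 and 1.86). In Chow, Alb, the main plasma protein of hepatocytes, was also lower in hepatocyte nuclei, at 2120, 5109 and 3585 CPM beside 4327, 11187 and 10332 in endothelial-marker nuclei. The endothelial-marker values of Alb in MASH and those of the other hepatocyte markers are not given here. Free RNA in the droplets was not removed in the main comparisons, and endothelial-marker nuclei serve here as its measure.

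**Figure D4:**
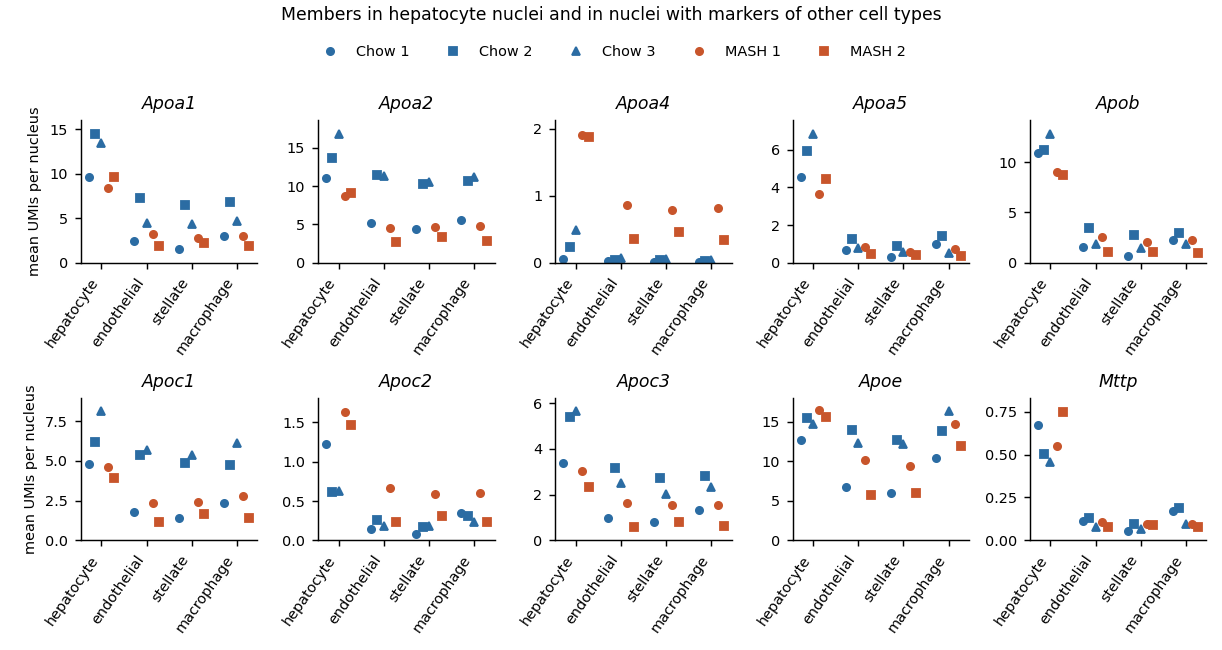
Unthinned mean UMIs per nucleus (vertical axes start at 0) of the 10 genes in hepatocyte nuclei and in nuclei with endothelial, stellate or macrophage markers; each point is 1 library. Apoa4 per nucleus is higher in MASH in all 4 groups, and Apoe in macrophage-marker nuclei (10.4 to 16.4) lies near its level in hepatocyte nuclei (12.7 to 16.5).

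A test of hepatocyte nuclei against all nuclei lacking Hnf4a called 3 members in Chow, all lower in hepatocyte nuclei: Apoa2 (-0.64, SE 0.20, edgeR adjusted p 0.0429), Apoc1 (-0.60, SE 0.19, adjusted p 0.0408) and Apoe (-0.75, SE 0.20, adjusted p 0.0205). In all genes 18.1% were called lower. In MASH it called Apoe (-0.83, SE 0.24, adjusted p 0.0297), where 20.5% of genes were called lower. These calls rest on single libraries, since without Chow replicate 2 or Chow replicate 3 no member was called in Chow, nor in MASH without MASH replicate 1. A shallow hepatocyte nucleus can also lack an Hnf4a UMI. Against marker-gated nuclei only, 5 members were called higher in the hepatocyte nuclei of Chow, namely Apoa5 (1.54), Apob (1.25), Apoa4 (1.24), Mttp (1.09) and Apoc2 (0.71), and Apoe was lower (-0.95), where 56.9% of genes were called in either direction. In MASH the same test called Apoa5 (1.27) and Mttp (1.01), where 46.1% of genes were called. The difference of the first contrast between MASH and Chow called no member, against 0.0316% of genes.

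Apoa4 was called higher in MASH in each of the other gated classes that could be tested. In endothelial-marker nuclei the Chow libraries stood at 12.9, 27.3 and 55.6 (TMM-scaled CPM) and those of MASH at 471 and 209 (log2 fold change 3.49, SE 0.55, edgeR adjusted p 0.00918), where 0.878% of genes were called higher. In stellate-marker nuclei the values were 3.28, 37.5 and 43.9 and then 520 and 258 (3.94, SE 0.67, adjusted p 0.0217), and in macrophage-marker nuclei 5.35, 15.9 and 28.2 in Chow and 538 and 204 in MASH (4.40, SE 0.62, adjusted p 0.00759), where 0.404% and 0.524% of genes were called higher. No other member was called in these classes. These nuclei also hold free RNA of hepatocytes, whose part in the difference was not tested. The calls were lost without Chow replicate 2 in endothelial-marker (3.42, adjusted p 0.0502) and macrophage-marker nuclei (4.33, 0.0611), on leaving out MASH replicate 1 in endothelial-marker (2.77, 0.0539) and stellate-marker nuclei (3.32, 0.140), and MASH replicate 2 in stellate-marker nuclei (4.34, 0.0507). T cell, B cell and cholangiocyte gates held too few Chow nuclei to be fitted.

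The free RNA was measured against each member. By the medians above, Apoe and Apoa2 came closest to it: the mean of endothelial-marker nuclei equalled 53.2%, 90.6% and 83.7% of the Apoe UMIs per hepatocyte nucleus in Chow and 61.8% and 36.9% in MASH, and for Apoa2 47.2%, 84.0% and 67.0% and then 52.2% and 29.3%. For Apoa4 the share depended on the zone. In the pericentral zone of Chow it was 132%, 53.4% and 47.5%, in the periportal zone 31.5%, 11.7% and 9.80%. In MASH the same shares were 45.2% and 18.1% in the pericentral and 51.9% and 25.5% in the periportal zone. When this mean was subtracted from every hepatocyte nucleus, for all genes, 0 Apoa4 UMIs were left in the pericentral zone of Chow replicate 1, so the fitted zone effect in Chow (-3.40) and interaction (3.91) have no fixed size there. Without that library they were -3.25 (edgeR adjusted p 5.49e-06) and 3.76 (adjusted p 1.49e-05), from 71 and 166 pericentral UMIs left in Chow replicates 2 and 3. The interaction of Apoa1 became 0.97 (adjusted p 0.0291). The diet difference of Apoa4 became 1.94 (adjusted p 0.374). In Chow the subtraction gave 9 calls among the members, against 22.6% of genes, and 3 of them were not made on the full counts. Apoe (1.09, adjusted p 0.00881), Apoc1 (0.86, adjusted p 0.0455) and Apoa2 (0.53, adjusted p 0.0397) were then higher in the pericentral zone. These 3 calls rest on what was left after most of the Apoe level of Chow, 53.2%, 90.6% and 83.7%, was taken off. The same mean was taken from each zone. Median depth in Chow was 4388, 3724 and 4536 UMIs in the periportal and 5380, 4091 and 5059 in the pericentral zone. The part of depth in these calls was not tested. Between the diets the subtraction turned Apoe to 0.88 (adjusted p 0.398), left Apoc3 (-1.22), Apoa5 (-1.08) and Apob (-0.93) near their values on full counts and none of the members called, and called 142 genes between the diets in place of 1828.

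In macrophage-marker nuclei of MASH, Apoe stood above the other members. Macrophages are known to make Apoe. In MASH it was 0.82 higher on the log2 scale in macrophage-marker than in endothelial-marker nuclei of the same library (SE 0.15, edgeR adjusted p 7.81e-05), where 10.1% of genes were called higher, and it was the only member called. The ratio of its share of UMIs in macrophage-marker over endothelial-marker nuclei was 1.51 and 1.92 in the MASH libraries, while the other 9 genes had ratios from 0.903 to 1.24 and from 0.672 to 1.15. In Chow the ratio of Apoe was 1.29, 1.10 and 1.16, inside the range of the others in replicates 1 and 2, with a log2 difference of 0.26 (edgeR adjusted p 0.174, where 17.6% of genes were called). The difference between the diets was not called (0.56, adjusted p 0.236, where 0.876% of genes were). In stellate-marker against endothelial-marker nuclei of MASH, Apoc1 (0.54), Apoc3 (0.43) and Apoa2 (0.39) were called higher, where 9.73% of genes were. Both comparisons were added after the data were seen. Between the diets, Apoe in macrophage-marker nuclei was at 5916, 10437 and 11044 in Chow and 9711 and 7147 in MASH (log2 fold change -0.12, SE 0.62, edgeR adjusted p 0.966).

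The genes around the pathway were taken from 5 lists, of which 57 genes were tested between the diets and 6 called, against 12.1% of all genes. None of these 6 calls held in every alternative: with free RNA subtracted none was made, and without MASH replicate 1, or without MASH replicate 2, only that of Lpl was. Of 11 genes of lipoprotein lipolysis and uptake, edgeR called 3 between the diets, 2 higher and 1 lower in MASH, with a median log2 fold change of 0.08. Lpl, the lipase that acts on circulating triglyceride, was at 5.86 ± 1.59 (SD, n = 3) in Chow and 62.2 ± 0.866 (SD, n = 2) in MASH (3.41, SE 0.28, adjusted p 0.00213). Vldlr, a receptor for VLDL, was at 0.926 ± 0.747 and 12.4 ± 3.80 (3.76, SE 0.73, adjusted p 0.0210). Angptl4, an inhibitor of Lpl, was at 308 ± 70.9 and 103 ± 23.3 (-1.58, SE 0.32, adjusted p 0.0239). Lpl is also made by macrophages, whose summed markers were higher in the hepatocyte nuclei of MASH, though Cd163 and Timd4 were lower. The part of macrophages in the Lpl value was not tested.

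Among the 15 partners of VLDL assembly and export, Apobec1, the enzyme that edits Apob RNA, was the only gene called between the diets, at 88.1 ± 22.04 (SD, n = 3) in Chow and 35.8 ± 3.62 (SD, n = 2) in MASH (-1.30, SE 0.29, edgeR adjusted p 0.0301), and the median of the list was -0.24. Of 6 other apolipoproteins tested, Apom, which carries sphingosine-1-phosphate on HDL, was called lower, at 48.9 ± 20.7 and 16.3 ± 3.54 (-1.58, SE 0.42, adjusted p 0.049965), with a list median of -0.90. None of 15 transcription factors was called (median -0.33), Hnf4a among them, which the gate used. Of the 10 genes that flank the clusters, Zpr1 was lower in MASH, at 513 ± 184 and 137 ± 4.36 (-1.90, SE 0.38, adjusted p 0.0224). Zpr1 starts 1144 bases downstream of Apoa5 on the same strand, and its level fell from the periportal to the pericentral zone in Chow (-1.03, adjusted p 4.75e-09) and in MASH (-0.84, adjusted p 4.65e-06).

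By zone, the lists held genes in both directions. In Chow 25 of 56 listed genes were called, against 28.4% of all genes. In Chow, edgeR called 5 of 15 partners of assembly and export between the zones. Sort1 (1.01), A1cf (0.57) and Mia3 (0.28) were higher in the pericentral zone, and Tm6sf2, which aids the lipidation of VLDL, (-0.81) and Pla2g12b (-0.34) were lower. Of the 11 lipolysis and uptake genes 7 were called, and the 6 with the greatest differences were Vldlr (4.34), Lpl (1.77), Angptl8 (-1.54), Sdc1 (-0.55), Angptl4 (-0.30) and Lipc (-0.28), the hepatic lipase, which was not called without Chow replicate 3 (-0.18, adjusted p 0.0729). Apom (-0.54), Apon (-0.51) and Apof (-0.32) were lower in the pericentral zone. Of the transcription factors Esrrg (3.99), Ppara (0.57) and Mlxipl (0.31) were higher and Ppargc1a (-0.93), Rora (-0.33) and Hnf4a (-0.31) lower. Each hepatocyte nucleus was chosen by an Hnf4a UMI, which weighs more at lower depth. The median depth in Chow was 4388, 3724 and 4536 UMIs in the periportal zone and 5380, 4091 and 5059 in the pericentral zone. The part of the gate in the Hnf4a value was not tested. Among the flanking genes, Bud13 (-1.05) and Sik3 (-0.25) were lower and Nectin2 (0.46) higher, beside Zpr1. Of the 25 calls in Chow 18 held in all alternatives. Those of Sort1 (without Chow replicate 2, 0.79, adjusted p 0.0621), Pla2g12b (without Chow replicate 1, -0.29, adjusted p 0.0879), Lcat (without Chow replicate 2, -0.15, adjusted p 0.170), Apom (free RNA subtracted, -2.16, adjusted p 0.0552) and Lipc did not, nor did those of Nectin2 and Lpl with both free RNA and Chow replicate 1 taken off. In MASH 10 of 56 were called, against 9.63% of all genes: Vldlr (2.56), Sort1 (1.09), Sar1b (0.64), Angptl4 (0.36), Esrrg (2.98) and Nr0b2 (0.53) higher, and Sdc1 (-0.57), Apof (-0.36), Rora (-0.33) and Zpr1 lower in the pericentral zone. Of these, Vldlr and Zpr1 were called in all alternatives. The other 8 each lost the call without a MASH library (Sort1 then 0.63, adjusted p 0.440, and Nr0b2 0.29, adjusted p 0.541).

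The zone by diet test called 8 of 56 listed genes beside the 2 members, against 5.24% of all genes. In the same direction as Apoa4, with a value above 0, were Angptl8 (1.72, SE 0.19), a regulator of Lpl, Tm6sf2 (0.92, SE 0.24), Ppargc1a (0.91, SE 0.21), Bud13 (0.72, SE 0.17), Angptl4 (0.66, SE 0.12), Sar1b (0.58, SE 0.13), a coat protein subunit for the exit of large particles from the endoplasmic reticulum, and P4hb (0.41, SE 0.11), the partner subunit of Mttp. Lpl went the other way (-1.81, SE 0.33). The edgeR adjusted p of these genes ran from 9.98e-05 to 0.0375. Angptl8 and Lpl stayed called with either MASH library left out, Angptl4 was lost without MASH replicate 2 (0.52, adjusted p 0.221), and the other 5 were lost with either left out. Lpl was not called with free RNA subtracted (-8.58, adjusted p 0.144), and no gene was called without the library block. The medians of the partner, lipolysis and transcription factor lists were 0.09, 0.15 and 0.06, that of the 10 members was 0.27 and that of all genes 0.00.

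Over the 15 sums of 3 zones in 5 libraries, the genes whose log2 levels followed Apoa4 most closely among 8936 genes with a mean of at least 10 CPM were Gm42702 (Pearson r 0.951), Agfg1 (0.95003), Cdkn1a (0.947), which encodes the cell cycle inhibitor p21, Tpm3 (0.945) and Slc20a1 (0.942), a phosphate transporter. The sums of a library share its depth and its free RNA, so these values are a description. Of the 5, Slc20a1 was itself called in the zone by diet test (0.64, edgeR adjusted p 0.0218) and between the diets (1.85, adjusted p 0.0228). Among the members, Apoa4 had an r between -0.32 and 0.28 with each of the others except Mttp (-0.75). Apoa1, Apoa2, Apoa5, Apob, Apoc1 and Apoc3 had r of 0.86 or more with each other, and the r of Apoc2 with these 6 lay between -0.78 and -0.63.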

How the data were processed

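Nuclei were sorted from snap-frozen liver and profiled with the 10x 3′ v3 assay. Per the labels and the study's methods, the authors made the deposited UMI counts per gene and nucleus with Cell Ranger 8.0.1 on the mouse genome GRCm38, leaving out intronic reads. The values are whole, unnormalised counts.

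Nuclei with at least 300 genes were kept, and the highest Scrublet scores (scanpy 1.11.5) were removed at 0.8% per 1000 nuclei, since Scrublet's own cut-off marked from 0 to 3 nuclei. Counts were summed per library, and per zone within library, and tested with the edgeR 4.0.16 quasi-likelihood test (TMM, its filter on low counts, Benjamini-Hochberg adjustment over all genes tested, threshold 0.05; R 4.3.3). Zone fits carried the library as a block. Shares of nuclei were compared by exact two-sided permutation (scipy 1.17.1). Sums needed at least 20 nuclei. The edgeR script was tested on simulated counts. Apoa4 rested on 189 to 4495 UMIs a library in hepatocyte nuclei.

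Genes were named by rule: the 10 members, every called gene of 5 lists (at most the 6 with the largest change), and the 5 genes most correlated with Apoa4. The members and lists were chosen with earlier results of these data known, among them the zone by diet effect of Apoa4. The list of lipolysis and uptake was later cut by 2 genes, which are not reported here. DESeq2 1.42.0, other gates, scalings, scores, thinning and leaving out libraries were alternatives. The subtraction of free RNA, alone and without Chow replicate 1, was added after the data were seen. Library numbers were looked at for pairing: deviations from the group means of same-numbered libraries correlated at -0.041 and -0.14. With 2 MASH libraries their deviations mirror each other, so these values cannot decide on pairing. The libraries were treated as unpaired.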

Additional observations from a re-analysis of the deposited data

Results flagged for a closer look

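The difference of the zone effect (pericentral over periportal, log2) between MASH and Chow passed its own interaction test for 2 members, Apoa4 (2.71) and Apoa1 (0.64). It also passed for the listed genes Angptl8 (1.72), Tm6sf2 (0.92), Ppargc1a (0.91), Bud13 (0.72), Angptl4 (0.66), Sar1b (0.58) and P4hb (0.41), and, in the opposite direction, for Lpl (-1.81). The zones are positions within each library, and Glul in the pericentral zone was at 214 to 314 CPM (UMIs scaled to a fixed total) in Chow and at 892 and 1075 in MASH. The Apoa4 effect was already known when the genes were chosen.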

How the results depend on the processing

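The 6 zone calls in Chow and the Apoa4 difference between diets in that effect kept their direction and passed the threshold in all alternatives but 1. Without the replicate block on the library, 0 members and 0 of all genes were called in the zone by diet test (the Apoa4 value stayed at 2.71). The member counts that follow show how calls move with the setting and are not results about the members, since more genes of any kind can pass too. The diet comparison in hepatocyte nuclei, with 0 members called, gave 6 with DESeq2, 2 without the filter on low counts and 2 with Storey's q-values. It gave 1 on total UMIs without TMM and 1 with a replicate block, whose pairing could not be checked. Leaving out 1 library gave 0 to 4. Over all genes this comparison called 1828, DESeq2 3119, Storey's q-values 3831 and the fit with free RNA subtracted 142, and 152 to 2900 with 1 library left out. Within zones, the midlobular and the periportal comparison each gave 1 member without the filter, and leaving out 1 library gave 0 to 3 and 0 to 1, and 0 to 2 in the pericentral zone. In nuclei with endothelial, stellate or macrophage markers it gave 0 to 1. Zone by diet ranged from 1 to 3 members with 1 library left out. In MASH, 1 member was called between zones with free RNA subtracted and 1 with thinned nuclei, and 0 to 4 with 1 library left out. Hepatocyte against Hnf4a-lacking nuclei gave in Chow 1 with lacking nuclei of at least 2000 UMIs, 6 with marker-gated nuclei and 0 to 3 with 1 library left out, and in MASH 0, 2 and 0 to 4, and 2 with doublet calls kept. Over all genes these counts were 4423 in Chow and 4634 in MASH, 304 and 411 with lacking nuclei of at least 2000 UMIs, and 9001 and 7296 with marker-gated nuclei. Zone by diet called 743 genes, 382 with free RNA subtracted and 381 thinned.

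Several values changed sign. With free RNA subtracted they were Apoe by diet (0.881), Apoa2 (-0.0189) and Apoe (-0.667) in zone by diet, and Apoc3 between zones of MASH (-0.0217). Without Chow replicate 1 as well, these were Apoa2 (-0.210) and Apoe (-1.06) in zone by diet and Apoc3 (-0.0197) in MASH. Without TMM it was Mttp by diet (0.0327). With thinned nuclei they were Apoa2 (-0.0362) and Apoe (-0.0227) between zones of Chow, and Apoa1 (-0.0147), Apoc1 (-0.0591) and Apoc3 (-0.0112) between those of MASH. With doublet calls kept they were Apoc1 (-0.00789) and Apoc3 (-0.00902) in MASH. With 1 library left out, Apoc2 ranged from -0.22 to 0.227 and Mttp from -0.0129 to 0.261 in hepatocyte against lacking nuclei of Chow, and Mttp from -0.0178 to 0.431 in those of MASH. Mttp ranged from -0.00145 to 0.139 in zone by diet, Apoa2 from -3.07e-05 to 0.0831 between zones of Chow and Apoc3 from -0.0269 to 0.0860 between those of MASH. The cause was not tested.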
